A study of Homo sapiens with 12 samples.

Results

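The genes described here are the FGF receptors FGFR1, FGFR2, FGFR3 and FGFR4, the ligand FGF2, its binding protein FGFBP1, and the syndecans SDC1 and SDC4. They were chosen by name, and all 8 of them are among the 12584 genes of the count table. RNA-seq was performed on A549 and PC9, both human lung adenocarcinoma lines, infected with a lentiviral vector carrying HOXC6 (A549-HOXC6 and PC9-HOXC6) or with the empty pCDH-NEO vector (A549-NEO and PC9-NEO), with 3 libraries in each of 4 groups. HOXC6 is a homeobox transcription factor. The cells of all 4 groups were stably infected and selected with neomycin, and whether each line was a single clone or a pool was not stated. A549 was kept in RPMI 1640 and PC9 in DMEM, so the cell line and the medium cannot be told apart. The replicates were labelled as independent, but separate cultures were not described, so p-values measure only the spread between these libraries, which may be technical.

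Fibroblast growth factors are secreted ligands that bind tyrosine kinase receptors together with heparan sulfate, a sulfated sugar chain carried by proteoglycans on the cell surface. FGF2 is kept in the matrix by heparan sulfate, and FGFBP1 releases it from there. Receptor activation signals through adaptor proteins to the RAS-MAPK and PI3K pathways, and is restrained by Sprouty proteins and DUSP6. Syndecan-1 and syndecan-4 are transmembrane proteoglycans that present FGF2 to its receptors, and syndecan-4 also sits in focal adhesions. In lung cancer, FGFR1 is known for gene amplification, and FGF2 with FGFR1 for autocrine growth.

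Total counts over the genes of the table ran from 1212053 to 3286577 per library, so 3 counts, taken as the floor of detection, equalled 0.915 to 2.57 CPM (here, counts put on a shared library size by TMM normalization). HOXC6 itself was not analysed here, so the vector labels could not be checked on its level. Of the epithelial markers, 4 of 7 were in the table and all 4 lay above the floor in every group, with a summed level from 7802 to 11682 CPM. KRT7 and KRT18 were the highest of them, at 6516 and 1170 CPM in A549-NEO. EPCAM was low in A549, at 5.76 CPM with the empty vector and 5.31 CPM with HOXC6, against 196 and 157 CPM in PC9. Of the markers of other cell types, 7 of 11 were in the table and their summed level was between 31.4 and 170 CPM. The highest of them in A549-NEO were ACTA2 (85.3 CPM) and COL1A1 (67.7 CPM), well above the floor. In both HOXC6 comparisons the fold change moved with the GC content of the transcript. The median log2 fold change was -0.59 in A549 and -0.42 in PC9 for genes under 40% GC, and 0.21 and 0.18 for genes of 60% or more. For this reason a fit that takes out the trend of each library on GC content and length is given beside the members' results where it changed a call or a direction, and as counts beside each list. The part of GC content in each result was not tested.

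In the GENCODE annotation of GRCh37, FGFR2 lies at chr10:123237846-123357972 (minus strand), FGFR3 at chr4:1795020-1810599 (plus) and FGFR4 at chr5:176513906-176525145 (plus), each with 18 exons in its canonical transcript, as has FGFR1. FGF2 lies at chr4:123747837-123819391 (plus, 3 exons) and FGFBP1 at chr4:15937200-15940363 (minus, 3 exons). SDC1 lies at chr2:20400558-20425194 (minus) and SDC4 at chr20:43953928-43977064 (minus), with 5 exons each. The exons of FGF2 overlap those of NUDT6 on the opposite strand by 804 bp, and the microRNA AC021205.1 on the same strand by 77 bp. Those of FGFR1 overlap, on the opposite strand, LETM2 by 138 bp and the long non-coding RNA ENSG00000255201 by 387 bp. The strand setting of the counting was not given in the sources used here. NUDT6, the microRNA and the long non-coding RNA were not analysed here. LETM2 had 9.64 to 16.7 CPM in A549-NEO and 10.3 to 16.4 CPM in A549-HOXC6, where FGFR1 had 345 to 536 CPM.

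The sequences around the starts of FGFR2 and SDC4 are shown because these genes had the largest fold change with HOXC6 among the 8 genes in A549 and the change with the smallest adjusted p in PC9. They are windows of 300 bases from RefSeq on GRCh38.p14, a later build than that of the counts, written 5′ to 3′ on the strand of the gene. Capitals mark TAAT, the core that homeodomains bind, or its reverse complement ATTA, which were searched on both strands with overlapping matches kept. For FGFR2 the windows furthest upstream of the 5 listed are given.
FGFR2, chr10:121598395-121598694, minus strand: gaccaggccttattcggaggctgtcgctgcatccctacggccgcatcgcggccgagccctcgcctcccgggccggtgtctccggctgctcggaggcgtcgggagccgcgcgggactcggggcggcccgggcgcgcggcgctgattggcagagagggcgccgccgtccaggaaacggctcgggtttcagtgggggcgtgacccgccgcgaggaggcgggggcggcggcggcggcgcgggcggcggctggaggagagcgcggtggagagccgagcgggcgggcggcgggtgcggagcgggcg
FGFR2, chr10:121596596-121596895, minus strand: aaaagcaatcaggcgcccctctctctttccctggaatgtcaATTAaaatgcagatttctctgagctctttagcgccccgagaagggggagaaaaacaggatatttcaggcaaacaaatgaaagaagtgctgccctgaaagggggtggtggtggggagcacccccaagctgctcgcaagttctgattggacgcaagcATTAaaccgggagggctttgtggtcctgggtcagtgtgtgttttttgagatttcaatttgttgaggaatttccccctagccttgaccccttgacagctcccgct
SDC4, chr20:45348375-45348674, minus strand: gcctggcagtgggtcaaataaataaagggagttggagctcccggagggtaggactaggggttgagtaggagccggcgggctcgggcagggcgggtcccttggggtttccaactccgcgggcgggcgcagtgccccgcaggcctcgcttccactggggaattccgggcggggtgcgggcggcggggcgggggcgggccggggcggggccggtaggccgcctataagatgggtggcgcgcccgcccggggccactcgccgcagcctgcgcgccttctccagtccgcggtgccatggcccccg
The first FGFR2 window and the SDC4 window held none of these letters, and the second FGFR2 window held 2 matches. Of all 35116 windows in the RefSeq table, 50.2% held at least 1 match. Across the 7 genes with windows in the table, 6 of 13 windows held a match, among them 3 of 5 for FGFR2. These matches are a description of the letters and say nothing about binding.

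FGF2, a ligand without a signal peptide that acts outside the cell, was detected in all 12 libraries. Its level was 80.8, 77.1 and 89.2 CPM in A549-NEO and 94.2, 104 and 110 CPM in A549-HOXC6. All 3 A549-HOXC6 libraries lay above the A549-NEO libraries, as did 26.8% of all genes tested in A549. The log2 fold change was 0.27 (SE 0.117, adjusted p = 0.0701 by edgeR's quasi-likelihood test), so FGF2 did not pass the test. The transcript of FGF2 has 36.8% GC, the lowest of the 8 genes, and once GC content and length were corrected for, the log2 fold change was 0.92 (adjusted p = 1.95e-08).

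In PC9 the FGF2 level was 17.8, 10.6 and 14 CPM with the empty vector and 16.4, 17.0 and 16.8 CPM with HOXC6. The groups overlapped. The log2 fold change was 0.25 (95% interval -0.27 to 0.77, adjusted p = 0.505), and 0.77 with the correction (adjusted p = 0.0304). The call for FGF2 therefore depended on the correction in both lines. In A549 FGF2 also passed in a fit over 12 libraries (0.31, adjusted p = 0.0406) and without A549-HOXC6 replicate 1 (0.34, adjusted p = 0.0454). Between the lines, FGF2 was 6.004-fold higher in A549-NEO than in PC9-NEO (log2 fold change 2.59, SE 0.166, adjusted p = 1.85e-16). In bulk RNA, fewer cells with a transcript and less transcript per cell cannot be told apart.

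FGFBP1 was at the floor in A549, with 0 counts in all 3 A549-NEO libraries, which allows up to 1.04 to 1.21 CPM, and 1 count in a single A549-HOXC6 library. In PC9 it reached 7, 8 and 7 counts with the empty vector and 4, 5 and 14 counts with HOXC6, equal to 3.59 ± 0.554 and 3.30 ± 1.22 CPM (SD, n = 3). The PC9 groups overlapped, and FGFBP1 was removed by the filter on low counts in every comparison. Against a floor of 3 counts per library, it was at least 3.15-fold higher in PC9-NEO than in A549-NEO. FGF2 and FGFBP1 were thus highest in different lines.

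**Figure D1:**
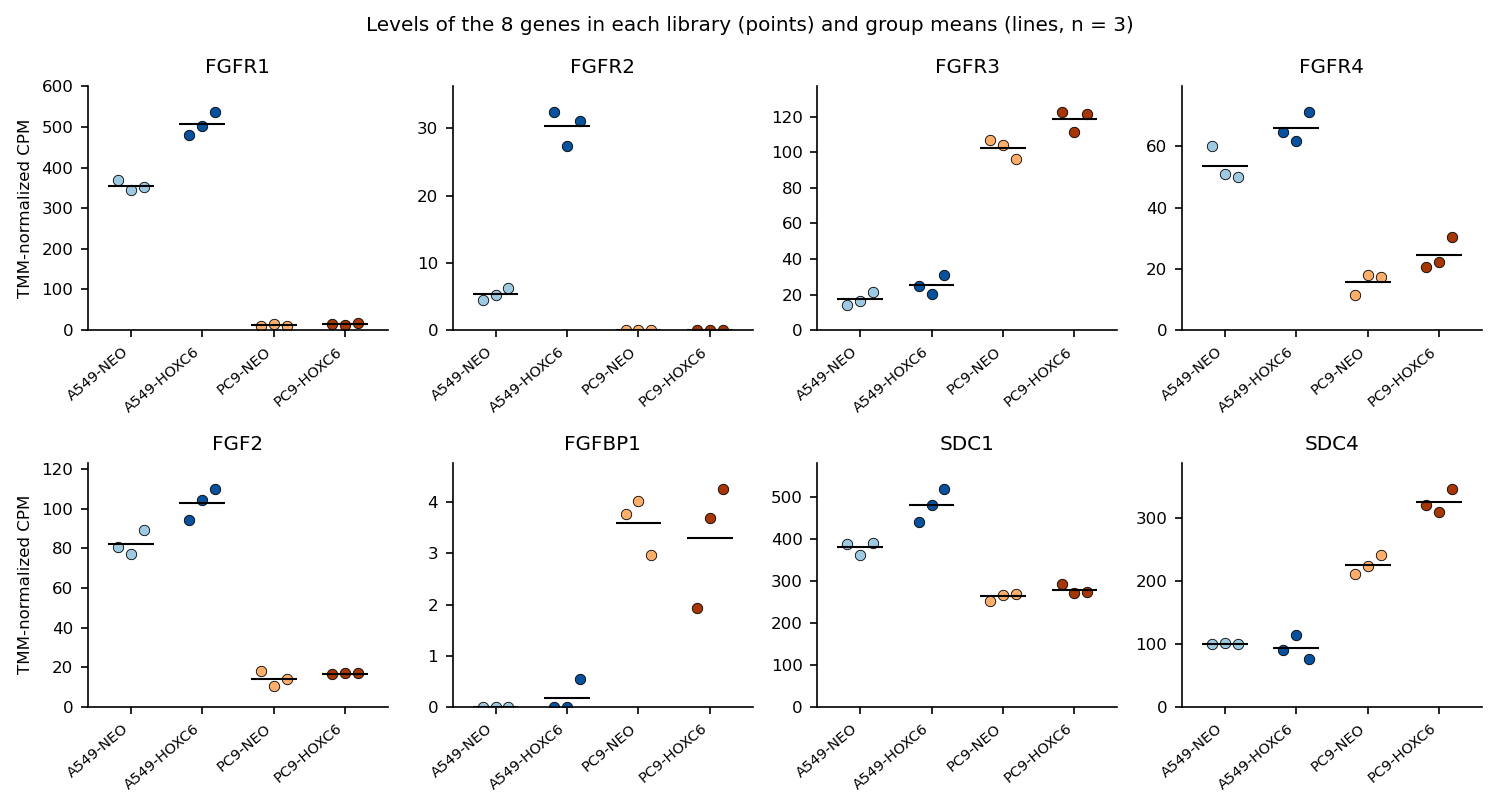
TMM-normalized CPM (vertical axes, linear, each from 0) of the 8 genes in the 12 libraries, with lines at the group means. FGFR2 is at 0 in all PC9 libraries and between 27.4 and 32.4 CPM in A549-HOXC6, and SDC4 separates PC9-HOXC6 from PC9-NEO but not A549-HOXC6 from A549-NEO.

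FGFR2, a receptor whose splice forms differ between epithelial and mesenchymal cells, was upregulated in A549-HOXC6 cells. Its level was 4.51, 5.22 and 6.29 CPM in A549-NEO (13, 13 and 16 counts) and 32.4, 27.4 and 31.0 CPM in A549-HOXC6 (89, 32 and 58 counts). The lowest A549-HOXC6 library was several times above the highest A549-NEO library. The rise was 5.54-fold (log2 fold change 2.47, SE 0.260, adjusted p = 2.47e-08). FGFR2 was the only one of the 7 members tested in A549 to pass the fold threshold as well, a log2 fold change above 1, which 1.70% of all genes tested passed upwards. With the correction the log2 fold change was 2.34, and over the 15 alternatives it ran from 2.33 to 2.60, past the test in all of them.

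In PC9 no FGFR2 read was counted in any of the 6 libraries, with or without HOXC6. A count of 0 allows up to 0.915 to 2.21 CPM in these libraries. The difference of the HOXC6 change between A549 and PC9 could not be fitted for FGFR2. Against the floor, FGFR2 was at least 3.64-fold higher in A549-NEO than in PC9-NEO, while A549-HOXC6 exceeded PC9-HOXC6 at least 19.9-fold. FGFR2 passed the filter in the comparison of the lines only through A549-NEO, so its call there (adjusted p = 8.85e-07) had to follow.

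The splicing factors ESRP1 and ESRP2, which favour the epithelial form of FGFR2, were read beside it, although gene counts do not separate the forms. ESRP1 had 0 or 1 count in every A549 library. In PC9 it was at 222 ± 7.21 CPM with the empty vector and 237 ± 7.92 CPM with HOXC6 (SD, n = 3). ESRP2 was at 3.19 ± 0.750 CPM in A549-NEO and 2.31 ± 0.523 CPM in A549-HOXC6, and in PC9 at 111 ± 5.79 CPM with the empty vector and 105 ± 13.3 CPM with HOXC6. FGFR2 reads were thus counted in the line in which both factors were low. Of the 4 splicing regulators listed, all in the table, 2 were tested in A549 and 1 passed, lower, and in PC9 none of 4 passed. With the correction both passed downwards in A549, RBFOX2 and PTBP1, and in PC9 ESRP1 passed upwards (0.21, adjusted p = 0.0359) and ESRP2 (-0.29, adjusted p = 0.0425) and PTBP1 (-0.26, adjusted p = 7.28e-04) downwards, PTBP1 and RBFOX2 being named after their values were seen.

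FGFR1, the receptor with the most reads in A549, was also upregulated there, but by less. The gene lies at chr8:38257733-38326352 on the minus strand. It was at 368, 345 and 353 CPM in A549-NEO and at 480, 503 and 536 CPM in A549-HOXC6. The groups did not overlap, and the rise was 1.38-fold (log2 fold change 0.46, SE 0.0808, adjusted p = 4.72e-05). With the correction the log2 fold change was 0.27 and still passed (adjusted p = 0.00128).

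In PC9 FGFR1 was low, with 11.3, 14.1 and 10.2 CPM in PC9-NEO and 14, 13.3 and 16.5 CPM in PC9-HOXC6. These groups overlapped (log2 fold change 0.33, 95% interval -0.21 to 0.88, adjusted p = 0.380). The difference of the change between the lines was 0.17 (95% interval -0.30 to 0.63, adjusted p = 0.713), so FGFR1 was not shown to respond differently in A549 and PC9. Without HOXC6, FGFR1 was 30.8-fold higher in A549 than in PC9 (log2 fold change 4.95, SE 0.121, adjusted p = 1.61e-29).

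FGFR3 showed the opposite order of the lines. It was at 14.2, 16.5 and 21.2 CPM in A549-NEO and at 107, 104 and 96.3 CPM in PC9-NEO, and was 5.77-fold lower in A549-NEO (log2 fold change -2.53, SE 0.147, adjusted p = 9.57e-18). With HOXC6 it was at 24.7, 20.5 and 31.0 CPM in A549 and at 123, 111 and 121 CPM in PC9. The A549 groups overlapped, and the PC9 groups did not, as was the case upwards for 19.5% of all genes tested in PC9. Neither change passed the test, the log2 fold change being 0.54 in A549 (adjusted p = 0.0571) and 0.22 in PC9 (adjusted p = 0.0954). With the correction they were 0.31 and -0.03 (adjusted p = 0.292 and 0.858). In A549 the change passed in a fit over 12 libraries (0.59, adjusted p = 0.0125), without A549-NEO replicate 3 (0.71, adjusted p = 0.0350) and without A549-HOXC6 replicate 2 (0.63, adjusted p = 0.0399).

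FGFR4, which binds FGF19 with the co-receptor beta-klotho, was at 60.02, 51.0 and 49.9 CPM in A549-NEO and 64.8, 61.6 and 71.2 CPM in A549-HOXC6. Its log2 fold change in A549 was 0.25 (adjusted p = 0.147), and -0.01 with the correction. In PC9 it was at 11.3, 18.1 and 17.4 CPM with the empty vector and 20.7, 22.1 and 30.5 CPM with HOXC6. There it rose 1.60-fold (log2 fold change 0.68, SE 0.232, adjusted p = 0.0286). That call was lost with the correction (0.41, adjusted p = 0.229), with DESeq2 (adjusted p = 0.100), with scaling by library size only (adjusted p = 0.0546), without PC9-NEO replicate 1 (adjusted p = 0.129) and without PC9-HOXC6 replicate 3 (adjusted p = 0.273). The difference of the change between the lines was -0.38 (95% interval -0.91 to 0.14, adjusted p = 0.327). FGFR4 was 3.49-fold higher in A549-NEO than in PC9-NEO (adjusted p = 3.40e-11).

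Per kb of exon, the receptor reads had a different make-up in the 2 lines. FGFR1 held 57.9% ± 0.403 of the sum of the 4 receptors in A549-NEO (SD, n = 3) and FGFR3 held 84.3% ± 3.18 of it in PC9-NEO. FGFR4 was second in both, at 31.2% ± 2.28 and 12.96% ± 3.09. With HOXC6 these shares were 59.0% ± 1.998 for FGFR1 in A549 and 80.5% ± 2.89 for FGFR3 in PC9, so the leading receptor of each line stayed the same. FGFR2 went from 0.798% ± 0.146 in A549-NEO to 3.22% ± 0.301 in A549-HOXC6 and remained the least of the 4 there. With the length of the canonical transcript in place of all exons, FGFR2 held 1.36% and 5.35%, FGFR3 held 4.75% and 4.80%, and the order of these 2 receptors in A549-HOXC6 was reversed by less than the spread. The summed level of the 4 receptors per kb of exon was 35.7 ± 1.38 CPM in A549-NEO against 49.996 ± 3.49 CPM in A549-HOXC6, and 25.1 ± 1.01 CPM in PC9-NEO against 30.4 ± 1.998 CPM in PC9-HOXC6.

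**Figure D2:**
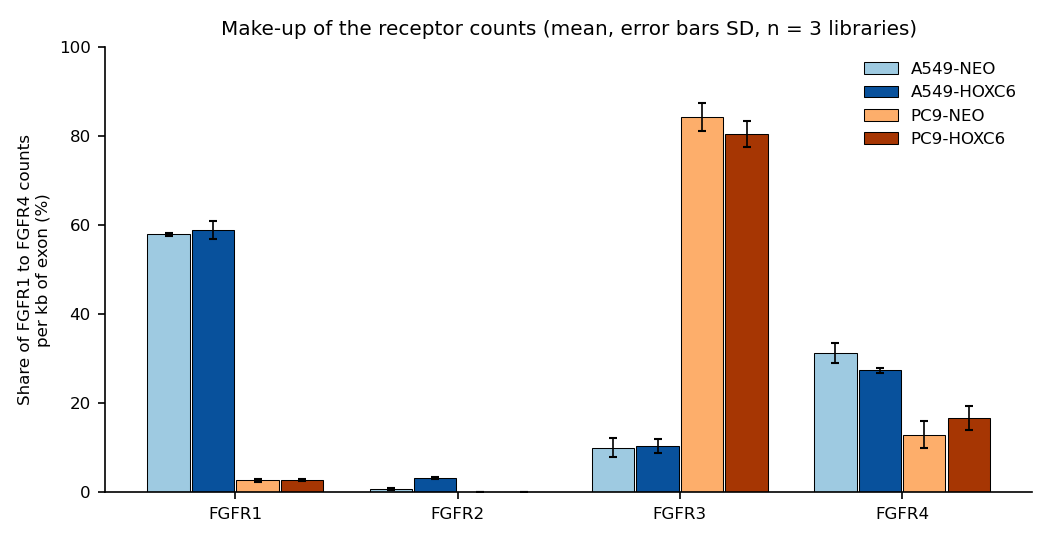
Share of each receptor in the summed counts of FGFR1 to FGFR4 per kb of exon (vertical axis, percent), as means with SD over 3 libraries. FGFR1 leads in both A549 groups (57.9% and 59.0%) and FGFR3 in both PC9 groups (84.3% and 80.5%).

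Among members with a fitted difference (not FGFR2 or FGFBP1), only the change of SDC4 with HOXC6 was shown to differ between the lines. SDC4 was at 212, 225 and 242 CPM in PC9-NEO and at 320, 310 and 347 CPM in PC9-HOXC6. All PC9-HOXC6 libraries lay above all PC9-NEO libraries, and SDC4 was upregulated 1.45-fold (log2 fold change 0.53, SE 0.0767, adjusted p = 4.13e-06), and by 0.38 with the correction (adjusted p = 3.96e-04). In A549 it was at 100, 101 and 99.4 CPM with the empty vector and at 89.5, 114 and 76.0 CPM with HOXC6. The A549-HOXC6 libraries spread around the A549-NEO libraries (log2 fold change -0.18, 95% interval -0.44 to 0.09, adjusted p = 0.284). With the correction the change in A549 was -0.39 and passed the test (adjusted p = 0.00682).

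The difference between the lines, the SDC4 change in A549 minus that in PC9, was -0.67 (SE 0.148, adjusted p = 9.63e-04). It was -0.76 with the correction (adjusted p = 3.45e-05), and ran from -0.78 to -0.56 over the 20 alternatives, past the test in each. SDC4 was the only one of the 6 members with a fitted difference to pass this test, in the direction in which 8.44% of all 9229 genes tested passed, while 10.9% passed in the other and 19.4% in either. Without HOXC6, SDC4 was 2.20-fold lower in A549 than in PC9 (log2 fold change -1.14, adjusted p = 1.87e-14).

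SDC1 was at 388, 361 and 390 CPM in A549-NEO and at 439, 480 and 520 CPM in A549-HOXC6. The groups did not overlap, and SDC1 was 1.22-fold higher with HOXC6 (log2 fold change 0.29, SE 0.0833, adjusted p = 0.00691). With the correction the log2 fold change was -0.00397 (adjusted p = 0.971), and without A549-NEO replicate 2 the adjusted p was 0.0559. The transcript of SDC1 has 59.1% GC. In PC9 SDC1 was at 253, 266 and 268 CPM with the empty vector and 293, 271 and 272 CPM with HOXC6 (log2 fold change 0.09, 95% interval -0.06 to 0.24, adjusted p = 0.407). The correction turned this change to -0.165 (adjusted p = 0.0977). SDC1 was 1.49-fold higher in A549-NEO than in PC9-NEO (adjusted p = 3.22e-09).

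The ratio of SDC4 to SDC1 counts within a library does not depend on the scaling of the libraries. It was 0.258, 0.279 and 0.255 in A549-NEO, against 0.204, 0.237 and 0.146 in A549-HOXC6. In PC9 it was 0.838, 0.843 and 0.902 with the empty vector and 1.09, 1.14 and 1.27 with HOXC6. The groups did not overlap in either line, and the ratio was lower with HOXC6 in A549 and higher in PC9. These are the libraries in which SDC4 passed the test of the difference between the lines, so the ratio adds no separate support. Each contrast gave p = 0.1 in a two-sided exact permutation test, the smallest p that 3 against 3 libraries allow. The ratio of FGFR2 to FGFR1 was 0.0151 ± 0.00279 in A549-NEO, against 0.0599 ± 0.00676 in A549-HOXC6 (SD, n = 3; exact permutation p = 0.1). The ratio of FGFR3 to FGFR1 was 0.0488 ± 0.0108 and 0.0501 ± 0.00863 in the same groups (exact permutation p = 0.9). The ratio of FGF2 to FGFR1 was 0.232 ± 0.0181 and 0.203 ± 0.00595 there (exact permutation p = 0.1). That of FGFR4 to FGFR1 was 0.151 ± 0.0110 and 0.130 ± 0.00667 (exact permutation p = 0.1). Separation of the A549 groups was thus not particular to FGFR2, and the share of other gene pairs that separate was not computed in either line. None of these ratios was corrected for GC content. In A549 the log2 fold changes of FGF2 and FGFR1 were 0.27 and 0.46 without the correction. With it they were 0.92 and 0.27, so the direction of the FGF2 to FGFR1 ratio depends on the correction.

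**Figure D3:**
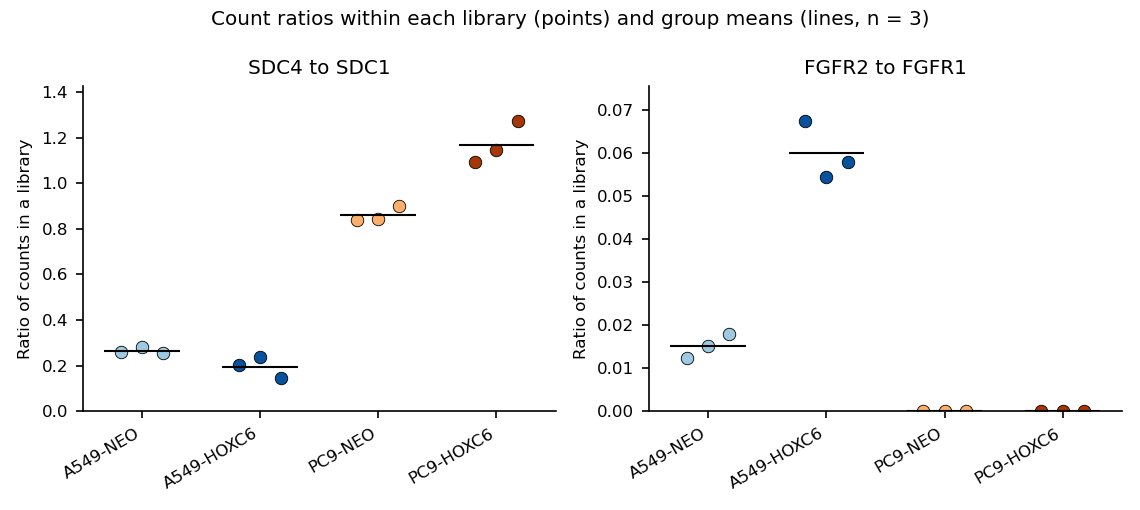
Ratio of SDC4 to SDC1 counts and of FGFR2 to FGFR1 counts (vertical axes, from 0) in each library, with lines at the group means. The SDC4 to SDC1 ratio is between 0.838 and 0.902 in PC9-NEO and between 1.09 and 1.27 in PC9-HOXC6, and lies below 0.3 in A549.

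Compared per kb, SDC1 had the highest level of the 8 genes in A549-NEO, at 105 ± 4.45 CPM per kb of all annotated exons and 120 ± 5.08 per kb of the canonical transcript. The order below it depended on the length used. Per kb of exon, SDC4 (38.3 ± 0.278) lay above FGFR1 (20.7 ± 0.701), and FGF2 (12.1 ± 0.907) and FGFR4 (11.2 ± 1.15) did not differ beyond their spread. Per kb of the canonical transcript, FGFR1 (62.4 ± 2.12) lay above SDC4 (38.3 ± 0.278) and FGFR4 (17.3 ± 1.79) above FGF2 (12.4 ± 0.928). By both lengths FGFR3, FGFR2 and FGFBP1 came last in A549-NEO, in that order. In PC9-NEO, SDC4 (86.6 ± 5.83) lay above SDC1 (72.7 ± 2.33) per kb of exon, but within the spread of it (83.0 ± 2.66) by the canonical length, and FGFR3 followed by both (21.1 ± 1.15 and 23.8 ± 1.29). Per kb of exon, FGFR4 (3.25 ± 0.773), FGFBP1 (2.66 ± 0.410) and FGF2 (2.08 ± 0.534) each lay within the spread of the next, above FGFR1 (0.690 ± 0.117). By the canonical length FGFR4 (5.05 ± 1.20) lay above FGFBP1, and FGFR1 (2.08 ± 0.353) within the spread of FGF2 (2.12 ± 0.546).

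Of the 8 genes, 7 passed the filter in A549 and 6 in PC9. In A549, 3 of 7 passed the test upwards (FGFR1, FGFR2 and SDC1) and none downwards, beside 18.9% and 20.7% of all 8771 genes tested. In PC9, 2 of 6 passed upwards (FGFR4 and SDC4) and none downwards, beside 13.3% and 14.2% of 8419 genes, and none passed the fold threshold, which 0.962% of genes passed upwards. Between A549-NEO and PC9-NEO, and leaving out FGFR2, 4 of 6 were higher and 2 lower, beside 36.9% and 35.7% of 9076 genes. The counts of members in the HOXC6 comparisons are small, and those of FGFR4 and SDC1 rest on calls that were lost with the correction. With the correction FGFR1, FGFR2 and FGF2 passed upwards and SDC4 downwards in A549, beside 12.5% and 19.1% of all genes. In PC9, FGF2 and SDC4 then passed upwards and none downwards, beside 8.41% and 12.6% of all genes.

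**Figure D4:**
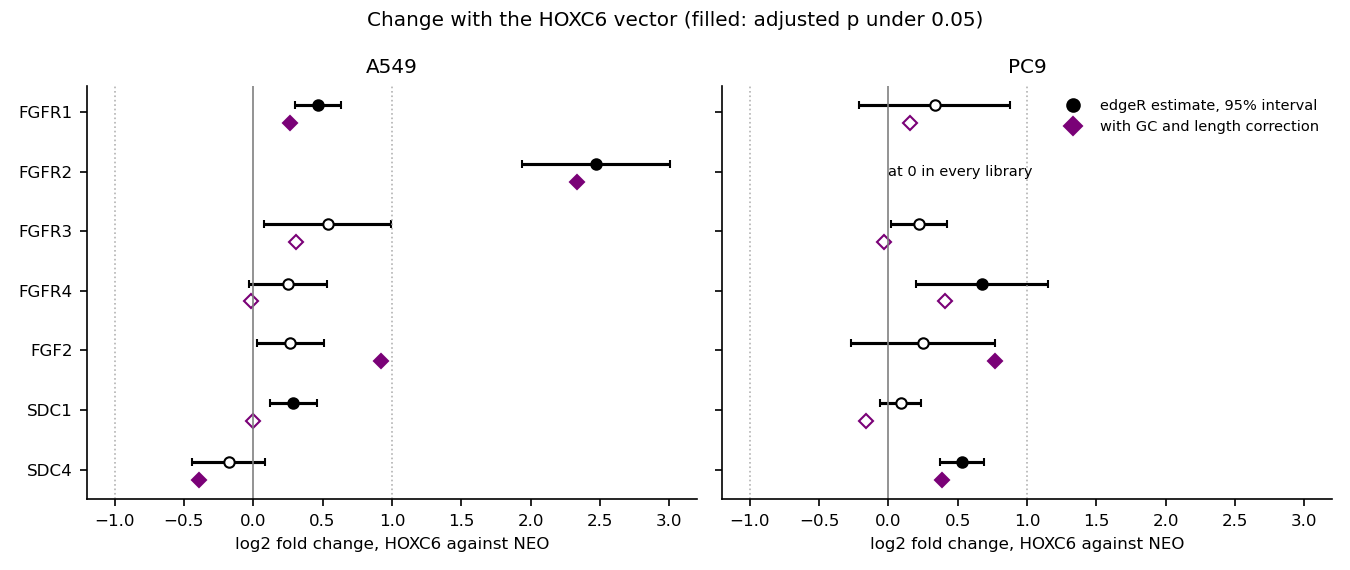
Log2 fold change of HOXC6 against NEO (horizontal axis) in A549 and PC9 for the 7 genes tested in at least 1 line, with 95% intervals, and below each the estimate corrected for GC content and length. Filled symbols passed an adjusted p of 0.05. FGFR2 in A549 (2.47) lies alone beyond the dotted line at 1.

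The other genes of the pathway were read from 8 lists with 111 genes, 85 of them in the table. Over all lists, 3 of 51 genes tested passed upwards and 12 downwards in A549, where 18.9% and 20.7% of all genes did, and 16 and 8 of 52 in PC9, where 13.3% and 14.2% of all genes did. With the correction these counts were 5 and 8 in A549 (12.5% and 19.1% of all genes) and 10 and 8 in PC9 (8.41% and 12.6% of all genes). The counts of single lists below stand against these shares. Among other FGF ligands, 15 of 17 were in the table, 12 never exceeded 3 counts in any library, and 5 of these were at 0 throughout. FGF1 and FGF18 reached at most 6 counts. FGF19, the ligand that acts through FGFR4, also named after its values were seen, had 22, 18 and 10 counts in A549-NEO, 9, 0 and 2 counts in A549-HOXC6, 7, 6 and 3 counts in PC9-NEO and 8, 3 and 22 counts in PC9-HOXC6. It was tested only in the fit over 12 libraries, where its change in A549 minus that in PC9 was -2.59 (adjusted p = 0.0180). It passed the filter there through A549-NEO replicates 1 and 2 (7.63 and 7.23 CPM) and PC9-HOXC6 replicate 3 (6.71 CPM). High levels in these groups make the difference negative, so the filter favoured this call, which is not read as a result. FGF2 was therefore the only FGF ligand in the table with more than 22 counts in a library. Of the binding proteins and co-receptors, 2 were tested in each line and none passed.

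Among receptor-proximal adaptors and effectors, 1 of 13 passed upwards and 3 downwards in A549, and 4 and 4 in PC9. With the correction 1 and 1 passed in A549 and 2 and 2 in PC9. PIK3CA, the catalytic subunit of PI3K, passed the fold threshold downwards in both lines, as did 5.51% of all genes tested in A549 and 3.56% in PC9. It was at 16.3, 12.9 and 16.5 CPM in A549-NEO and 7.64, 3.42 and 10.7 CPM in A549-HOXC6 (log2 fold change -1.03, adjusted p = 0.00967). In PC9 it was at 53.0, 51.8 and 30.5 CPM with the empty vector and 23.2, 25.1 and 19.2 CPM with HOXC6 (-1.02, adjusted p = 2.57e-04). With the correction these changes were -0.27 and -0.37 and did not pass (adjusted p = 0.560 and 0.201). Among feedback inhibitors and targets, none of 7 passed in A549. In PC9 3 of 7 passed upwards and 1 downwards, namely DUSP6 (0.27, adjusted p = 0.0478), IL17RD (0.81, adjusted p = 0.0359) and EGR1 (0.37, adjusted p = 0.00114) against CCND1 (-0.54, adjusted p = 5.58e-08). These 4 genes were named after their values were seen, and DUSP6 and EGR1 did not pass with the correction, with which SPRED1 passed upwards (0.55, adjusted p = 0.0271, against -0.02 without it).

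Of the enzymes that build and edit heparan sulfate, 2 of 12 tested passed upwards and 2 downwards in A549, and 3 of 11 and 1 in PC9. With the correction 3 and 1 passed in A549, and 1 and 1 in PC9. HS6ST1, which adds 6-O sulfate to heparan sulfate, was at 52.0, 47.4 and 56.2 CPM in A549-NEO and 107, 104 and 121 CPM in A549-HOXC6. It rose 2.07-fold (log2 fold change 1.05, SE 0.124, adjusted p = 1.91e-07), and by 0.82 with the correction (adjusted p = 1.24e-07). In PC9 it rose by 0.31 (adjusted p = 0.0300), which did not pass with the correction (0.05, adjusted p = 0.791). The difference of its change between the lines was 0.79 (adjusted p = 4.56e-04). HS3ST1, a 3-O sulfotransferase, was at 11.8, 14.1 and 15.7 CPM in A549-NEO and 6.91, 7.70 and 6.42 CPM in A549-HOXC6, and fell by 1.03 on the log2 scale (adjusted p = 0.00820). With the correction its change in A549 was -0.95 (adjusted p = 0.0147), short of the fold threshold. In PC9 its change was -0.77 and did not pass (adjusted p = 0.0707). The difference of its change between the lines was -0.22 (adjusted p = 0.791).

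The other heparan sulfate proteoglycans in PC9 passed upwards in 3 of 5 and downwards in none, and in A549 upwards in none and downwards in 1. The median log2 fold change of the 5 was 0.41 in PC9 and -0.16 in A549, and with the correction 0.37 and -0.06, where the corrected medians over all genes tested were -0.05 and -0.06. The genes that passed, named after their values were seen, were SDC3 (0.51, adjusted p = 7.32e-04), HSPG2 (0.50, adjusted p = 1.82e-06) and CD44 (0.31, adjusted p = 7.46e-04) in PC9 and CD44 (-0.35, adjusted p = 5.03e-04) in A549. With the correction 2 passed upwards and 1 downwards in PC9, and 2 downwards in A549. SDC3 no longer passed (0.27, adjusted p = 0.0692), and GPC1, or glypican-1, passed downwards in A549 (-0.37, adjusted p = 1.32e-05) and PC9 (-0.31, adjusted p = 0.00101). SDC3 is another syndecan, HSPG2 is perlecan of the basement membrane, and CD44 is a hyaluronan receptor with heparan sulfate on some of its forms. The change of CD44 in A549 minus that in PC9 was -0.61 (adjusted p = 3.03e-05) and that of HSPG2 was -0.50 (adjusted p = 3.86e-04).

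Of the syndecan partners and sheddases, none of 10 passed upwards and 5 downwards in A549, against 3 of 10 and 2 in PC9. With the correction 1 passed upwards and 2 downwards in A549, and 2 and 1 in PC9. In A549 those that passed, named after their values were seen, included ADAM10 (-0.92, adjusted p = 1.02e-06) and SDCBP, or syntenin, which binds the tails of syndecans (-0.87, adjusted p = 4.03e-06). ADAM10 did not pass with the correction (-0.24, adjusted p = 0.0809), and SDCBP did (-0.46, adjusted p = 0.00198).

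**Figure D5:**
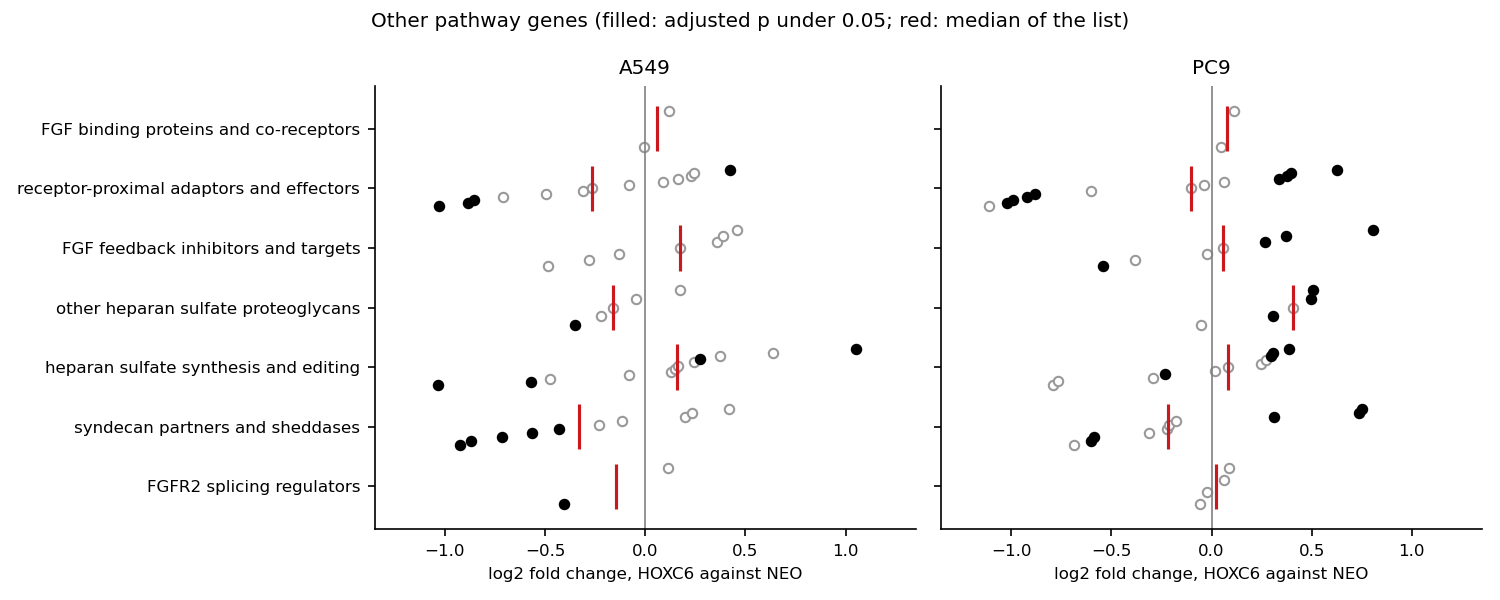
Log2 fold change of HOXC6 against NEO (horizontal axis) of the genes tested in 7 of the lists, in A549 and PC9, with a red line at the median of each list. Filled points passed an adjusted p of 0.05, and the other heparan sulfate proteoglycans have a median of -0.16 in A549 and 0.41 in PC9.

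For each of the 7 members that passed a test, the genes with the nearest pattern over the 12 libraries were found by the root mean square difference of centred log2 CPM among 8760 genes. SDC1 had the smallest distances, to SYMPK and HNRNPUL1 at 0.07 and 0.07. Its median distance to all genes was also the smallest, 0.58 against 2.50 for FGFR1, so these sizes do not rank the members. FGFR3 was nearest to AP1B1 (0.14) and ARRB1 (0.16), FGFR4 to SULT2B1 (0.14) and CRYL1 (0.19), and FGF2 to COL6A2 (0.14) and SMAD6 (0.15). SDC4 was nearest to LPCAT1 (0.15) and TMEM59 (0.15), and FGFR1 to PGAP4 (0.17) and AUTS2 (0.19). FGFR2 had the largest distances, to ATP8B4 (0.41) and CYB5B (0.43), with a median to all genes of 2.17. The 12 libraries come from 2 cell lines, a split that all these patterns share.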

How the data were processed

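Libraries of oligo(dT)-selected RNA from 4 groups of 3 were made with a directional kit and sequenced as paired reads. Per the submitters' processing notes, the authors used HISAT2 (2.1.0), the GRCh37.p13 genome and HTSeq (0.9.1). The deposited values are raw read counts per gene, not normalized. The release of the annotation and the strand setting are not given in the sources used here. The table held 12584 complete genes, and 1 incomplete last entry was left out, so totals (1212053 to 3286577 per library) cover part of the genes. Names, positions, lengths and GC content were taken from GENCODE v44 mapped to GRCh37, which held 12463 of these genes. Intervals and floors cover counting and replicate error only.

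Genes were filtered with filterByExpr, scaled by TMM and tested with the quasi-likelihood F-test of edgeR 4.0.16 in R 4.3.3, p-values being adjusted over all genes tested (Benjamini-Hochberg), within each line, between the NEO groups, and as an interaction over 12 libraries. A gene passed at an adjusted p under 0.05, and the fold threshold was a log2 fold change of 1 either way. The script was tested on simulated data. Alternatives were DESeq2 (1.42.0), RLE or library-size scaling, other count filters, a replicate block, a correction for GC content and length (mgcv 1.9.3) and each library left out. The members and lists were chosen with earlier results of these data known. Named were all members, genes whose exons overlap theirs, list genes past the fold threshold in a HOXC6 comparison (at most 6 per list), ESRP1, ESRP2 and the 2 nearest patterns per member with a mean of at least 5 CPM. Other list genes named in the text were chosen after their values were seen.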

Additional observations from a re-analysis of the deposited data

Results flagged for a closer look

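The change with HOXC6 differed between A549 and PC9, by edgeR's interaction test at an adjusted p under 0.05, for SDC4 and for 11 of 55 other pathway genes tested. The log2 fold change in A549 minus that in PC9 was -0.67 for SDC4 (adjusted p = 9.63e-04). It was also negative for FGF19 (-2.59, adjusted p = 0.0180, from at most 22 counts per library), CBL, an adaptor that marks receptors for degradation (-0.84, adjusted p = 0.00259), IL17RD, an FGF antagonist (-1.24, adjusted p = 0.0172), HSPG2 (-0.50, adjusted p = 3.86e-04), CD44 (-0.61, adjusted p = 3.03e-05), RBFOX2 (-0.42, adjusted p = 0.0413) and PRKCA (-0.51, adjusted p = 0.0123). It was positive for HS6ST1 (0.79, adjusted p = 4.56e-04), CCND1 (0.76, adjusted p = 3.31e-06), EXTL2 (1.48, adjusted p = 0.0232) and TIMP3 (3.61, adjusted p = 7.61e-06). TIMP3 was at the floor in A549-NEO, with 1 count in every library, and had 6 to 25 counts in A549-HOXC6. The size of its difference is therefore not measured well. FGF19 passed the filter through libraries of A549-NEO and PC9-HOXC6, where high levels make the difference negative, so its call is not read as a result. Over all 9229 genes tested, 19.4% passed in either direction. Their causes were not tested.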

How the results depend on the processing

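Of 405 values of 25 member results under the alternatives, 378 kept their direction and side of the threshold, 7 no longer passed, 11 came to pass and 9 changed sign. Corrected for GC content and length, FGFR4 and SDC1 in A549 became -0.0137 and -0.00397, and FGFR3 and SDC1 in PC9 -0.0338 and -0.165. With the replicate block added they were -0.0152 and -0.00310, and -0.0305 and -0.164. In either, 1 member passed downwards in A549. The difference between the lines for FGF2 (0.07) ran from -0.11 (without PC9-NEO replicate 1) to 0.23 as single libraries were left out. Members passing upwards were 5 in A549 with 12 libraries in one model, and 1 in PC9 with DESeq2 or library size only. Leaving out single libraries gave 2 to 4 in A549 and 1 to 2 in PC9, with 1 without PC9-NEO replicate 1 or PC9-HOXC6 replicate 3.

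Over all genes, 149 rose and 483 fell past the fold threshold in A549 and 81 and 300 in PC9. With the correction 116 rose and 223 fell in A549 and 133 fell in PC9, and with the block added 219 and 136 fell. With at least 10 counts in every library, fewer genes were tested: 95 rose in A549, 52 rose and 181 fell in PC9, 134 differences between the lines were negative, and 1112 genes were higher and 966 lower in A549-NEO than in PC9-NEO. The replicate numbers did not pair the libraries (correlations of deviations -0.0482 to 0.0423). With the replicate block alone, 150 rose and 493 fell in A549 and 83 and 293 in PC9, 257 and 231 differences between the lines were positive and negative, and 1775 and 1487 genes differed between the NEO lines. Except where named above, the cause was not tested. In PC9 no FGFR2 reads and few FGFBP1 reads were counted, and the part of depth in this was not tested.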
